A study of Homo sapiens with 9 samples.

Results

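The genes described here encode the cytosolic machinery that senses bacterial sugar metabolites and peptidoglycan fragments. They are ALPK1 (alpha kinase 1), TIFA, TIFAB, NOD1, NOD2 and RIPK2. The 6 genes were chosen by name, with earlier results of these data known. Each was found once among the 62710 distinct gene identifiers of the count table. HT-29 cells, a human colorectal adenocarcinoma line of epithelial origin, were wild type in every group, and they received flagellin or ADP-heptose at 500 ng/mL for 2.5 h or stayed non-stimulated. PolyA RNA was sequenced from 3 libraries per group, 9 in all. ALPK1-deficient cells were not analysed here.

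ADP-heptose is an intermediate in the making of lipopolysaccharide. It is bound in the cytosol by ALPK1, which then phosphorylates the adaptor TIFA. Phosphorylated TIFA oligomerizes and recruits TRAF6 and TRAF2, and the TAK1 and IKK kinases downstream release NF-κB. TIFAB is a relative of TIFA that is known to restrain it. NOD1 and NOD2 recognize peptidoglycan fragments, and both signal through the kinase RIPK2, which is decorated with ubiquitin by XIAP, the cIAP proteins and the LUBAC complex. Flagellin is read instead by TLR5 at the cell surface, so it serves as a stimulus that reaches NF-κB without ALPK1.

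ALPK1 and TIFA lie next to each other on chromosome 4 and are transcribed in opposite directions. In the GENCODE 29 annotation of GRCh38, TIFA occupies chr4:112274542-112285903 on the minus strand and ALPK1 occupies chr4:112285509-112442620 on the plus strand. Their exons share 122 bases, which is 2.87% of the exonic bases of TIFA and 0.99% of those of ALPK1. The sequences before the RefSeq starts of both genes are shown because the transcript of one changed and that of its neighbour did not pass the test. Each run is the 250 bases before the RefSeq start on GRCh38.p14, at chr4:112285905-112286154 on the minus strand for TIFA and at chr4:112297119-112297368 on the plus strand for ALPK1, read 5′ to 3′. The RefSeq start of ALPK1 lies inside the GENCODE 29 span, which begins within TIFA, so the ALPK1 stretch comes before the RefSeq start and not before the first base of the GENCODE gene. Capitals mark matches to the GC box GGGCGG and to the CCAAT box on either strand.
TIFA: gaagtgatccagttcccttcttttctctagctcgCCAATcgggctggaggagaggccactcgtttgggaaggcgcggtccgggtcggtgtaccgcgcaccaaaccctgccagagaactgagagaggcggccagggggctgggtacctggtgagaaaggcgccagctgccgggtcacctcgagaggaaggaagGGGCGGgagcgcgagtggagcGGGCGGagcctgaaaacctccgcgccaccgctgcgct
ALPK1: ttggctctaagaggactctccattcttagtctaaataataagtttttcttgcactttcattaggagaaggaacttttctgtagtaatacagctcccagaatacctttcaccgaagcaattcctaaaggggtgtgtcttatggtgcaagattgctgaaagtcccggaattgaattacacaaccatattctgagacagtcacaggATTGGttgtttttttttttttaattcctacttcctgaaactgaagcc

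The TIFA window, taken as the 300 bases from 250 before to 50 after the start, was 66% G and C and held 2 GC boxes and 1 CCAAT box. The ALPK1 window was 38.3% G and C and held 1 CCAAT box and no GC box. The median over 35116 RefSeq windows was 58.7% G and C, and 45% of them held a GC box and 34.6% a CCAAT box. The NF-κB consensus, the AP-1 site TGANTCA and the TATA box TATAAA had no match on either strand in the windows of TIFA, ALPK1, TIFAB or NOD1, nor in the 2 windows listed for NOD2. These motifs were found in 11.3%, 7.71% and 11.5% of all windows, respectively. The NOD1 window was 74.7% G and C and held 3 GC boxes. RIPK2 had no entry. A match is a description of letters only, and its absence from such a short window says nothing of a factor's binding elsewhere.

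Library totals were 35040844 to 37537705 counts in the non-stimulated group, 30770448 to 38304035 in the flagellin group and 50054773 to 58272772 in the ADP-heptose group. Counts were therefore compared after scaling, and a normalized count is a count brought to a common library size. ADP-heptose replicate 3 stood apart from its group. Over 12168 genes, the SD of its log2 differences from replicates 1 and 2 was 0.378 and 0.383, against 0.135 between those replicates and 0.167 to 0.196 and 0.171 to 0.184 within the non-stimulated and flagellin groups. Of 9 colon epithelial markers, 8 had more than 10 counts in every library, and CDX1 had 0 counts in the 6 libraries without ADP-heptose and 4 to 12 in the ADP-heptose libraries. The 3 endothelial markers had at most 4 counts in any library. Of the epithelial markers, 8 were tested and KRT20 was higher with ADP-heptose, at a log2 fold change of 0.40 (adjusted p = 9.4e-04) against non-stimulated cells and 0.30 (adjusted p = 0.0086) against flagellin. The other 7 did not pass the test. At an unadjusted p under 0.05 against non-stimulated cells, KRT8 and KRT18 were higher and CDX2 lower (log2 fold changes 0.31, 0.45 and -0.95). In ADP-heptose replicates 1, 2 and 3, normalized counts were 180888, 182239 and 263011 for KRT8 and 72258.5, 69979.9 and 117693 for KRT18. Both keratins were thus highest in replicate 3. Of 6 leukocyte markers only LYZ, which intestinal epithelium can also make, and of 4 fibroblast markers only COL1A1 passed 10 counts in every library. COL1A1 was higher with ADP-heptose, at a log2 fold change of 0.41 and an adjusted p of 0.0311, and the 4 fibroblast markers summed to 12.8 to 15.3 CPM (counts scaled to the library total) in non-stimulated cells, 12.9 to 16.4 with flagellin and 16.3 to 17.5 with ADP-heptose. The part of these markers in the results was not tested. Both stimuli acted on the cells, as CCL20, an NF-κB target chemokine, was higher by 8.01 on the log2 scale with ADP-heptose (adjusted p = 1.9e-13) and by 4.74 with flagellin (adjusted p = 4.1e-11). CXCL8 was higher by 7.68 and 2.49, and NFKBIA by 3.94 and 0.68, and both genes passed the test in both comparisons.

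ADP-heptose raised the transcripts of the adaptor TIFA and the kinase RIPK2, and the transcripts of the receptors ALPK1 and NOD1 did not pass the test. TIFA rose 4.52-fold and RIPK2 1.41-fold. NOD2 was near the limit of counting and TIFAB had no count. In the test across 17412 genes, 4 of the 6 genes had enough counts to enter, and 2 of those 4 were higher with ADP-heptose at an adjusted p under 0.05. Of all genes tested, 7.48% were higher and 4.42% were lower by the same rule, and the median log2 fold change over them was 0.01. With 4 genes, no more can be read from that share than from the values of each gene below. Whether an altered level reflects more cells with the transcript or more RNA per cell cannot be told apart in bulk RNA.

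**Figure D1:**
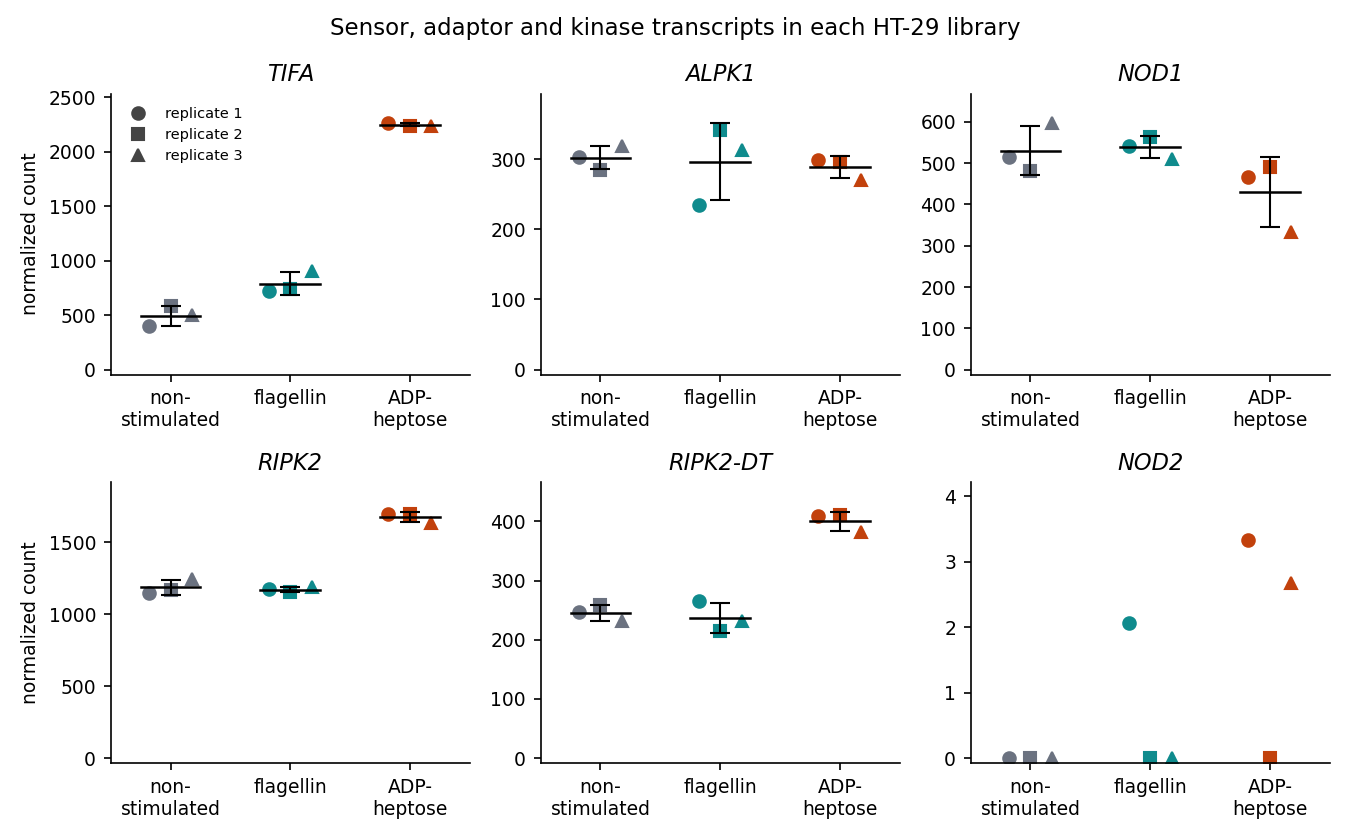
Normalized counts (vertical axis, linear, a separate scale for each gene) in the 9 HT-29 libraries for TIFA, ALPK1, NOD1, RIPK2, the divergent transcript RIPK2-DT and NOD2. Symbols are libraries by replicate number, and black lines and bars are the mean and SD of 3 libraries, not drawn for NOD2. TIFA, RIPK2 and RIPK2-DT in the ADP-heptose libraries lay above every other library, whereas ALPK1 overlapped between the groups and NOD2 had at most 4 raw counts.

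TIFA, the adaptor phosphorylated by ALPK1, was read at 392, 524 and 461 raw counts in non-stimulated cells, at 699, 645 and 712 with flagellin, and at 2714, 3134 and 2515 with ADP-heptose. After normalization these were 404, 588 and 498, then 723, 738 and 909, then 2261, 2238 and 2237. The 3 groups were ordered without any overlap, with the ADP-heptose libraries the highest. Group means were 497 ± 91.8, 790 ± 103 and 2246 ± 13.5 normalized counts (SD, n = 3 each). The coefficient of variation was 18.5% in non-stimulated cells, 13.1% with flagellin and 0.6% with ADP-heptose. Each of these values rests on 3 libraries, and whether the spread differed between the groups was not tested. The log2 fold change of ADP-heptose against non-stimulated cells was 2.18 (SE 0.13, 95% confidence interval 1.89 to 2.46, adjusted p = 2.2e-07), which placed TIFA at rank 199 of the 17412 genes when ordered from the most increased. Without ADP-heptose replicate 3 the log2 fold change was 2.19.

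Flagellin was followed by a smaller difference in TIFA. The 3 flagellin libraries lay above the 3 non-stimulated libraries, and the log2 fold change was 0.67 (SE 0.13, 95% confidence interval 0.39 to 0.95), a ratio of 1.59. Its adjusted p was 0.0609, so it did not pass the test across all genes, and its unadjusted p was 0.00025. The adjusted p ranged from 1.2e-06 to 0.363 over 17 other ways of processing and was under 0.05 in 6 of them, among them DESeq2 (0.00039), the 6 libraries of these groups alone (0.00029) and the 8 libraries without ADP-heptose replicate 3 (0.00027) or without non-stimulated replicate 2 (0.0387). In the comparison of the stimuli, TIFA was 2.85-fold higher with ADP-heptose than with flagellin (log2 fold change 1.51, SE 0.13, adjusted p = 6.8e-06).

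ALPK1, the kinase that binds ADP-heptose, was read at 293, 254 and 295 raw counts in non-stimulated cells, at 227, 298 and 245 with flagellin, and at 359, 414 and 304 with ADP-heptose. The deeper ADP-heptose libraries held more raw counts, but normalized means were 302 ± 17.0, 296 ± 55.0 and 288 ± 15.7 (SD, n = 3 each), and the groups overlapped. The log2 fold change with ADP-heptose was -0.07 (95% confidence interval -0.37 to 0.23, adjusted p = 0.798). With flagellin it was -0.03 (-0.34 to 0.27, adjusted p = 1), and between the stimuli it was also -0.03 (-0.34 to 0.27, adjusted p = 0.913). The lower ends of the intervals correspond to a fall of at most 0.37 on the log2 scale and the upper ends to a rise of at most 0.27. AP1AR, the gene on the other side of TIFA, had a log2 fold change of -0.07 with ADP-heptose (adjusted p = 0.612), so of the 3 adjacent genes only TIFA passed the test. The strand setting of the read counting is not given in the sources used here. How many of the ALPK1 counts came from the 122 exonic bases it has in common with TIFA was not tested.

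The transcript of the adaptor relative to that of its kinase was followed within each library, which removes the scaling between libraries. Protein was not measured in these libraries, and the ratio is not independent of the TIFA values above. The ratio of TIFA to ALPK1 counts per exonic base was 3.88 to 5.98 in non-stimulated cells, 6.28 to 8.93 with flagellin and 21.9 to 24.0 with ADP-heptose. The ranges did not overlap between the groups. Means were 4.80 ± 1.08, 7.88 ± 1.41 and 22.6 ± 1.19 (SD, n = 3 each). The size of this ratio depends on the length used, as ALPK1 has 12325 exonic bases and a longest transcript of 5633. With the longest transcripts as lengths, TIFA and ALPK1 were at 7.22 and 3.25 TPM (counts per base scaled to the same total) in non-stimulated cells. With ADP-heptose they were at 29.2 and 2.77 TPM, so the ratio was smaller in both groups than per exonic base.

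**Figure D2:**
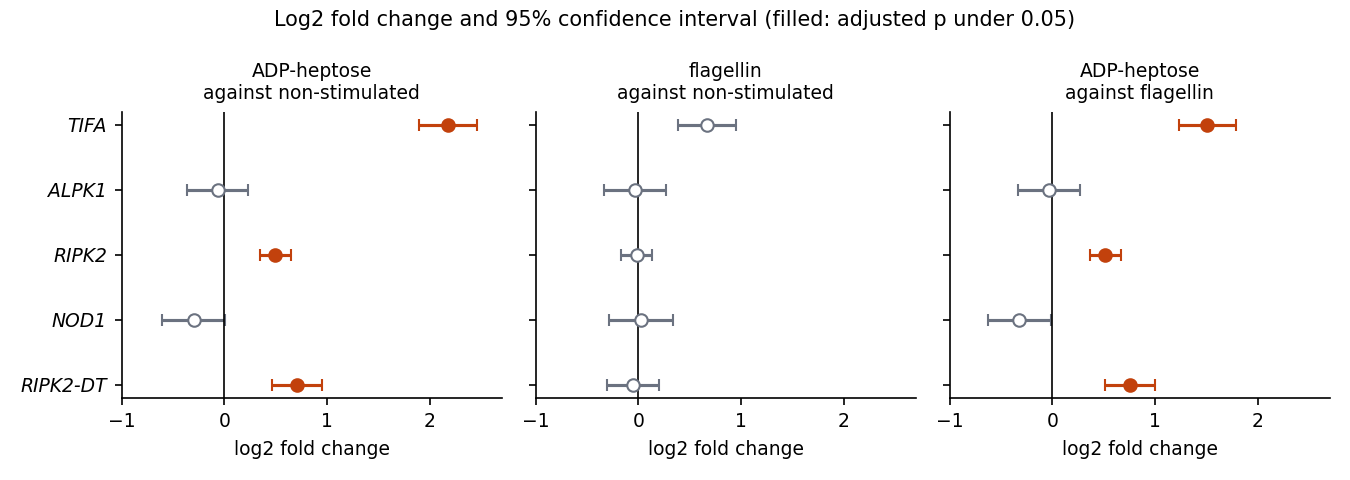
Log2 fold changes (horizontal axis) of TIFA, ALPK1, RIPK2, NOD1 and RIPK2-DT in the 3 comparisons, with bars for the 95% confidence interval; filled points passed the test at an adjusted p under 0.05. TIFA, RIPK2 and RIPK2-DT were past the test in both comparisons that hold ADP-heptose, at 2.18, 0.50 and 0.71 against non-stimulated cells, and no point was filled for flagellin against non-stimulated cells.

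TIFAB had 0 counts in all 9 libraries. A count of 0 allows up to 3 counts, which is 0.0515 CPM in the deepest library and 0.0975 in the shallowest, and this limit covers counting error only. The gene lies at chr5:135444218-135452399 on the minus strand, and 52.9% of its exonic bases are shared with DCANP1 on the same strand in GENCODE 29. DCANP1 had 0 counts as well. Reads from shared bases can be left uncounted when 2 genes claim them, and the counting options are not given in the sources used here.

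RIPK2, the kinase through which both NOD proteins signal, rose with ADP-heptose and did not pass the test with flagellin. Raw counts were 1109, 1042 and 1150 in non-stimulated cells, 1133, 1007 and 931 with flagellin, and 2037, 2371 and 1833 with ADP-heptose. Normalized counts were 1144, 1169 and 1243, then 1172, 1152 and 1188, then 1697, 1693 and 1631. All ADP-heptose libraries were above the other 6, which overlapped each other. Means were 1185 ± 51.7, 1171 ± 17.9 and 1674 ± 37.4 (SD, n = 3 each). The log2 fold change against non-stimulated cells was 0.50 (SE 0.07, 95% confidence interval 0.35 to 0.65, adjusted p = 3.9e-04), and against flagellin it was 0.52 (SE 0.07, adjusted p = 3.9e-04). For flagellin against non-stimulated cells it was -0.02 (95% confidence interval -0.17 to 0.14, adjusted p = 1). The rise of 1.41-fold was under the 2-fold limit that the study used as a further criterion.

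RIPK2 lies at chr8:89757747-89791063 on the plus strand. The long non-coding RNA RIPK2-DT is transcribed away from it on the opposite strand, and its own start lies 20 bases before the start of RIPK2 in GENCODE 29, with no exonic base in common. RIPK2-DT had 239, 230 and 214 raw counts in non-stimulated cells, 256, 188 and 181 with flagellin, and 491, 574 and 429 with ADP-heptose. The ADP-heptose libraries were again above all others. It rose with ADP-heptose by 0.71 on the log2 scale (SE 0.11, adjusted p = 0.00108), a 1.63-fold rise, and was higher by 0.75 against flagellin (adjusted p = 8.5e-04). With flagellin the log2 fold change was -0.05 (adjusted p = 1). The ratio of RIPK2 to RIPK2-DT raw counts was 4.53 to 5.37 in non-stimulated cells, 4.43 to 5.36 with flagellin and 4.13 to 4.27 with ADP-heptose, so the ratio was slightly lower in the ADP-heptose libraries, with no overlap, while both transcripts rose. OSGIN2, a neighbour downstream of RIPK2, had a log2 fold change of 0.26 with ADP-heptose (adjusted p = 0.256).

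NOD1, the receptor for peptidoglycan fragments that carry diaminopimelic acid, lies at chr7:30424527-30478784 on the minus strand. It was read at 498, 428 and 552 raw counts in non-stimulated cells, at 524, 493 and 400 with flagellin, and at 560, 688 and 375 with ADP-heptose. Normalized means were 530 ± 60.0, 539 ± 27.0 and 431 ± 84.9 (SD, n = 3 each), and the lowest value, 334, was that of ADP-heptose replicate 3, against 467 and 491 in the other ADP-heptose libraries. The log2 fold change was -0.30 (95% confidence interval -0.61 to 0.01, adjusted p = 0.216) against non-stimulated cells, where the groups overlapped, and -0.32 (-0.63 to -0.01, adjusted p = 0.217) against flagellin, where they did not. Without ADP-heptose replicate 3 these were -0.14 (adjusted p = 0.415) and -0.16 (adjusted p = 0.373). With flagellin the log2 fold change of NOD1 was 0.02 (adjusted p = 1). The antisense gene AC006027.1 shares 741 bases, 10.9% of the exonic bases of NOD1, so some reads could belong to either strand. GGCT, a neighbour upstream of NOD1, had a log2 fold change of 0.12 with ADP-heptose (adjusted p = 0.558).

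NOD2, the receptor for muramyl dipeptide, lies at chr16:50693588-50734041 on the plus strand and was almost uncounted. It had 0 counts in the 3 non-stimulated libraries, 2, 0 and 0 with flagellin, and 4, 0 and 3 with ADP-heptose. The 9 counts fell in 3 of the 9 libraries and the gene did not enter the test. No fold change is given, since a count of 0 allows up to 3 counts per library and only 1 library passed that limit. A difference in NOD2 was not detectable at this depth.

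Non-overlap of libraries was judged on the normalized counts, so it depends on the scaling. By this measure, TIFA and RIPK2 were the 2 of 4 tested genes whose ADP-heptose libraries did not overlap the non-stimulated libraries. Of all tested genes, 30.1% did so. For flagellin against non-stimulated cells it was TIFA alone, against 12.9% of all genes. Between the stimuli it was TIFA, RIPK2 and NOD1, against 27% of all genes. By the test, none of the 4 genes was called for flagellin against non-stimulated cells, where 0.368% of all genes were higher and 0.0115% lower with edgeR. TIFA was the only one of the 4 with an unadjusted p under 0.05 there, and DESeq2 called it alone. For ADP-heptose against flagellin, 2 of 4 were higher, with 5.4% of all genes higher and 2.76% lower.

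Levels were compared between the genes as TPM, counts per exonic base scaled to the same total in every library. In non-stimulated cells RIPK2 was the highest at 30.0 TPM, followed by TIFA at 9.20, NOD1 at 6.14 and ALPK1 at 1.94. The lowest and highest libraries were 28.9 and 31.8 TPM for RIPK2, 7.62 and 10.6 for TIFA, 5.42 and 6.98 for NOD1 and 1.78 and 2.06 for ALPK1, so no neighbours in that order overlapped. With the longest transcript as the length, however, TIFA and NOD1 were close, at 7.22 and 6.97 TPM. With flagellin the order was the same, at 29.4, 14.5, 6.18 and 1.88 TPM. With ADP-heptose RIPK2 and TIFA were side by side at 38.0 and 37.3 TPM, with NOD1 at 4.50 and ALPK1 at 1.66.

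The ratio of TIFA to RIPK2 counts per exonic base went from 0.259 to 0.369 in non-stimulated libraries and 0.452 to 0.561 with flagellin to between 0.969 and 1.01 with ADP-heptose. Based on the longest transcript, TIFA was still lower than RIPK2 in these cells, at 29.2 against 35.0 TPM. The percentile of TIFA among 16764 tested genes with a length was 47.9 in non-stimulated cells, 56.9 with flagellin and 78.0 with ADP-heptose. RIPK2 was at percentile 72.7, 72.2 and 78.3, NOD1 at 40.7, 40.7 and 37.4, and ALPK1 at 24.0, 23.7 and 23.6. RIPK2 counts per exonic base were 4.56 to 5.33 times those of its upstream receptor NOD1 in non-stimulated libraries, 4.47 to 5.09 times with flagellin and 7.54 to 10.7 times with ADP-heptose. The highest of these ratios was that of ADP-heptose replicate 3, and the other 2 ADP-heptose libraries were still above all 6 others.

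**Figure D3:**
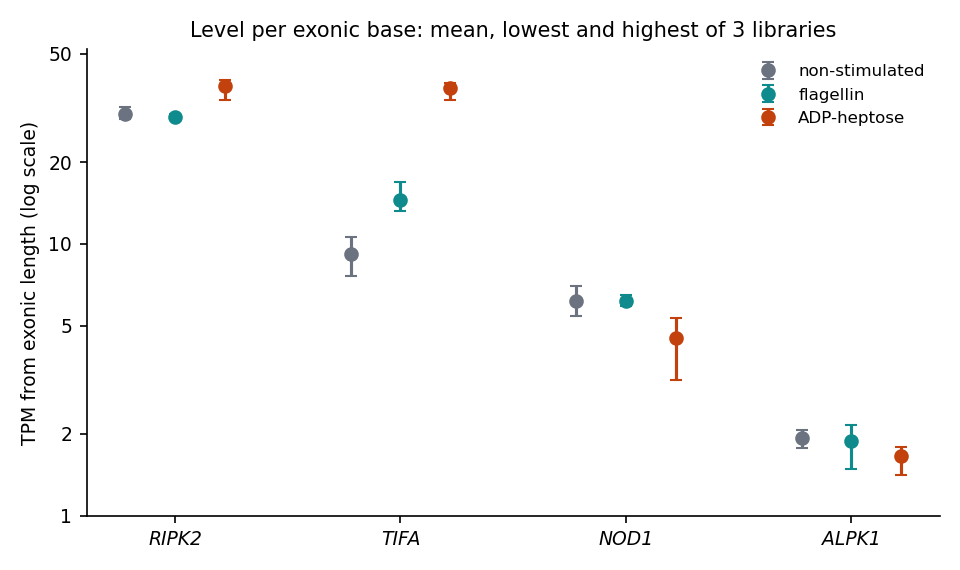
Level per exonic base in TPM (vertical log axis) of RIPK2, TIFA, NOD1 and ALPK1 in the 3 groups, where points are means and bars run from the lowest to the highest of 3 libraries. TIFA climbed from 9.20 to 37.3 TPM and met RIPK2 in ADP-heptose-stimulated cells, while ALPK1 stayed the lowest of the 4 in every group. With the longest transcript as the length, TIFA stayed lower than RIPK2 there, at 29.2 against 35.0 TPM. TPM is scaled to the same total in every library, so changes read from it differ from the fold changes of the test.

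**Figure D4:**
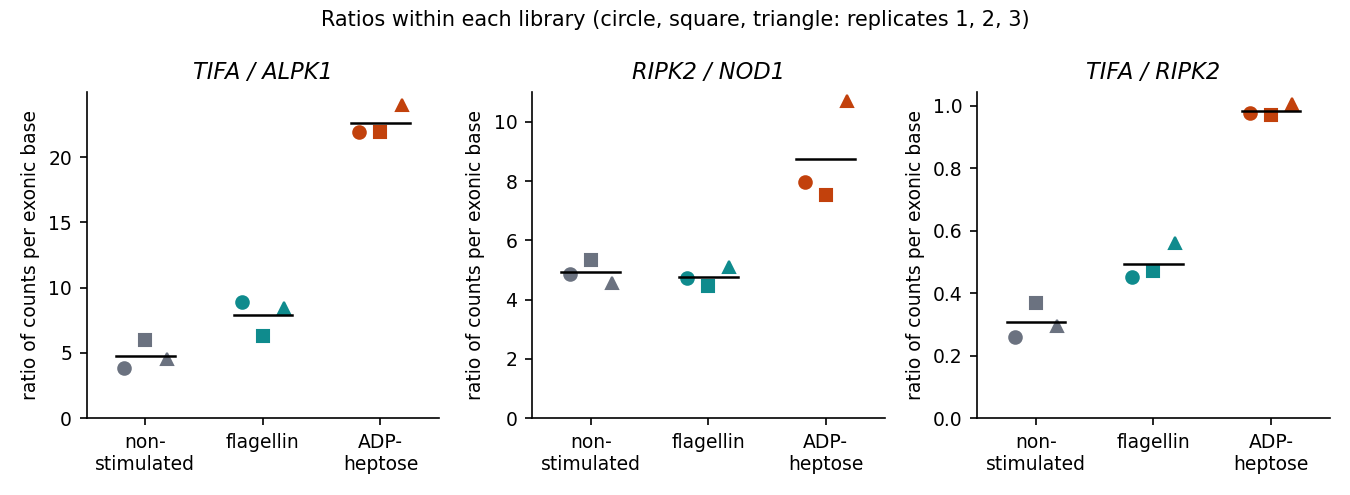
Ratios of counts per exonic base within each library (vertical axes, linear, from 0) for TIFA to ALPK1, RIPK2 to NOD1 and TIFA to RIPK2, with symbols for replicates and black lines for group means. The ADP-heptose libraries were above all others for each ratio, at 21.9 to 24.0, 7.54 to 10.7 and 0.969 to 1.01.

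The genes whose profile over the 9 libraries was most like that of TIFA, by Pearson's r of log2 CPM among 12167 genes, were MAP3K8 (r = 0.996), CA13 (r = 0.994) and TARS1 (r = 0.991). Those most like RIPK2 were SKIL (r = 0.993), CSRNP1 (r = 0.991) and FJX1 (r = 0.990). MAP3K8 had a log2 fold change of 0.92 with ADP-heptose and 0.31 with flagellin, CA13 had 0.66 and 0.17, and TARS1 had 0.24 and 0.06. SKIL had 0.92 and -0.07, CSRNP1 had 2.61 and 0.17, and FJX1 had 0.96 and 0.05. A high r thus did not mean a similar size of change. TIFA and RIPK2 had r = 0.930 with each other, ALPK1 and TIFA had r = -0.16 and NOD1 and RIPK2 had r = -0.61. The 9 points form 3 groups that differ in stimulus and in depth, so these values are descriptions.

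The partners and regulators through which these proteins signal were then followed in 33 genes, of which 30 were tested. With ADP-heptose 7 rose and 1 fell, and 22 did not pass the test. Of all genes tested, 7.48% were higher and 4.42% lower. The median log2 fold change of the 30 genes was 0.09, against 0.01 for all genes. The list was chosen with earlier results of these data known, so its counts beside these shares only describe its genes. With flagellin 2 rose and none fell (median 0.05), also with DESeq2, where 0.368% of all genes were higher and 0.0115% lower with edgeR. At an unadjusted p under 0.05, 5 were higher with flagellin (BIRC3, TNFAIP3, BIRC2, TRAF3 and CARD6) and 0 lower. Between the stimuli 6 were higher and 1 lower with ADP-heptose (median 0.05), against 5.4% and 2.76% of all genes. When counts were scaled by library totals alone, the log2 fold changes of all genes with ADP-heptose had a median of -0.13, and 6 of the list were higher and 2 lower.

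Among 12 genes that carry the signal from TIFA to NF-κB, TRAF2 and TRAF3 rose with ADP-heptose and the other 10 did not pass the test, where 7.48% of all genes were higher. TRAF2, a ubiquitin ligase adaptor that TIFA is known to recruit, was at 1714, 1698 and 1613 normalized counts in non-stimulated cells and at 2483, 2439 and 3477 with ADP-heptose (log2 fold change 0.74, SE 0.12, adjusted p = 0.00148). The highest of these was ADP-heptose replicate 3. TRAF3, a restraint on non-canonical NF-κB, rose by 0.93 on the log2 scale (SE 0.08, adjusted p = 1.1e-05). TRAF6, the other ligase bound by TIFA, had a log2 fold change of -0.10 (adjusted p = 0.57), and MAP3K7, which encodes TAK1, was at 0.00 (adjusted p = 0.984). None of the 12 passed the test with flagellin in edgeR or DESeq2, and 1, TRAF3, had an unadjusted p under 0.05 (log2 fold change 0.31, adjusted p = 0.464).

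Among 15 partners and regulators of NOD and RIPK2, 5 rose and 1 fell with ADP-heptose, where 7.48% of all genes were higher and 4.42% lower. BIRC3, which encodes cIAP2, a ubiquitin ligase for RIPK2, was at 487, 393 and 479 normalized counts in non-stimulated cells, 1960, 1848 and 1951 with flagellin, and 14632, 15429 and 11289 with ADP-heptose. It rose 30.4-fold with ADP-heptose (log2 fold change 4.93, SE 0.13, adjusted p = 1.6e-10) and 4.24-fold with flagellin (2.08, SE 0.12, adjusted p = 1.9e-06). BIRC2, which encodes cIAP1, rose by 1.11 on the log2 scale with ADP-heptose, at 2562, 2647 and 2691 normalized counts in non-stimulated cells against 5847, 5975 and 5244 (adjusted p = 3.3e-07). XIAP, the ligase of the same family that RIPK2 signalling depends on, had a log2 fold change of 0.08 (adjusted p = 0.428).

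The deubiquitinating enzymes TNFAIP3 and CYLD, which dampen the pathway, rose with ADP-heptose. TNFAIP3, which encodes A20, was at 268, 238 and 279 normalized counts in non-stimulated cells, 665, 618 and 609 with flagellin and 7795, 7726 and 5741 with ADP-heptose. It rose 27.1-fold with ADP-heptose (log2 fold change 4.76, adjusted p = 1.8e-10) and 2.41-fold with flagellin (1.27, adjusted p = 2.9e-04). CYLD rose 2.78-fold with ADP-heptose (log2 fold change 1.48, SE 0.10, adjusted p = 1.1e-06), and with flagellin its log2 fold change was 0.16 (adjusted p = 1). OTULIN, which removes linear ubiquitin chains, had a log2 fold change of -0.13 (adjusted p = 0.421).

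The remaining changes on this list were small. RBCK1, a subunit of LUBAC, rose by 0.37 (adjusted p = 0.0201), and ATG16L1, an autophagy protein that NOD proteins recruit, fell by 0.36 on the log2 scale (adjusted p = 0.0216). RBCK1 was at 6155, 6313 and 6277 normalized counts in non-stimulated cells and at 7522, 7362 and 9311 with ADP-heptose. Its highest value was that of ADP-heptose replicate 3. RBCK1 was past the test in 12 of 17 other ways of processing and ATG16L1 in 13 of 17. Leaving out any single non-stimulated library took RBCK1 past 0.05, to 0.0627 to 0.0834. Leaving out non-stimulated replicate 1 or 3 or ADP-heptose replicate 1 did so for ATG16L1, at 0.109, 0.0784 and 0.0682. Of 6 transporters that carry NOD ligands into the cytosol, 3 were tested and none passed the test with edgeR or DESeq2 in any comparison or had an unadjusted p under 0.05. The smallest adjusted p of the 3 with ADP-heptose was 0.368.

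**Figure D5:**
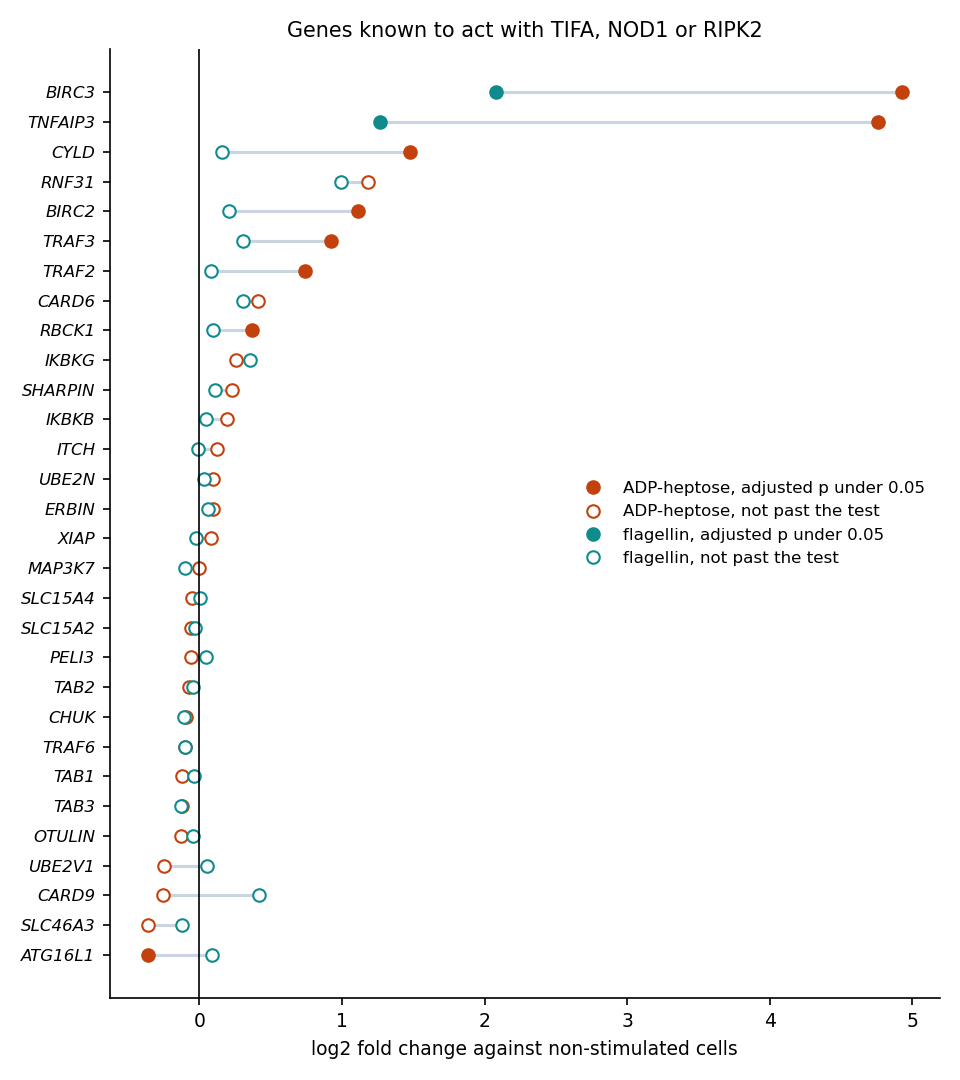
Log2 fold change against non-stimulated cells (horizontal axis) with ADP-heptose and with flagellin for the 30 tested partners and regulators, ordered by the ADP-heptose value; filled points had an adjusted p under 0.05. BIRC3 and TNFAIP3 stood far to the right at 4.93 and 4.76, and most of the other genes lay near 0 with both stimuli. RNF31 had only 5 to 22 raw counts per library.

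Relatives of these genes were also followed. Of all genes tested, 7.48% were higher and 4.42% lower with ADP-heptose, and 5.4% and 2.76% between the stimuli. With flagellin these shares were 0.368% and 0.0115%. Of 5 other alpha kinases, 4 were tested, and EEF2K, the kinase of elongation factor 2, fell by 0.50 on the log2 scale with ADP-heptose (SE 0.09, adjusted p = 0.00313). Between the stimuli the log2 difference of EEF2K was -0.36, lower with ADP-heptose (adjusted p = 0.0289), a call that was past the test in 10 of 17 other ways of processing, with adjusted p up to 0.16. Leaving out non-stimulated replicate 1 or 3, flagellin replicate 2 or 3, or ADP-heptose replicate 1 was enough to lose it, at 0.051, 0.0557, 0.16, 0.129 and 0.0712. TRPM6, a magnesium channel with a kinase domain, rose 2-fold with ADP-heptose (adjusted p = 0.0209). Its raw counts were low, at 50, 50 and 77 in non-stimulated cells and 160, 198 and 120 with ADP-heptose. Normalized counts of TRPM6 were 51.6, 56.1 and 83.2, then 133, 141 and 107. Its adjusted p was above 0.05 in 4 of 17 other ways of processing, each of which left out 1 library (non-stimulated replicate 1 or 2, or ADP-heptose replicate 1 or 2), with values from 0.0545 to 0.104. None of 5 tested genes of the NLR family other than NOD1, and none of 4 other RIPK genes, passed the test with edgeR or DESeq2 in any comparison. At an unadjusted p under 0.05 with ADP-heptose, NLRP3 was higher and NLRX1 lower among the NLR genes (adjusted p = 0.173 and 0.115), and DSTYK was lower among the RIPK genes (adjusted p = 0.0831). RIPK1 had a log2 fold change of 0.15 with ADP-heptose (adjusted p = 0.224), against 0.50 for RIPK2.

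Among 7 cytosolic sensors and adaptors of nucleic acid sensing, 5 were tested. With ADP-heptose 2 rose and 0 fell, where 7.48% of all genes were higher and 4.42% lower. IFIH1, the RNA sensor MDA5, was at 413, 432 and 419 normalized counts in non-stimulated cells and at 1311, 1255 and 1096 with ADP-heptose (log2 fold change 1.53, adjusted p = 1.8e-07). CGAS, a DNA sensor, rose by 0.73 (adjusted p = 0.00158). MAVS was lower with ADP-heptose at an unadjusted p under 0.05 only (log2 fold change -0.19, adjusted p = 0.117). None of the 5 passed the test with flagellin in edgeR or DESeq2, where 0.368% of all genes were higher and 0.0115% lower with edgeR. With flagellin 2 of the 5, IFIH1 and RIGI, had an unadjusted p under 0.05. RIGI had only 7 to 29 raw counts per library.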

How the data were processed

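PolyA RNA of 9 HT-29 libraries was sequenced as paired reads, and the authors aligned reads with HISAT2 and deposited counts per gene from featureCounts; their versions, genome build, annotation and strand setting are not given in the sources used here. The deposited table of raw counts held 62972 lines, and 262 lines that repeated an identifier were dropped to leave 62710 genes. Counts were tested with edgeR 4.0.16 (R 4.3.3): genes were filtered with filterByExpr (17412 kept), scaled by TMM, and fitted in a robust quasi-likelihood model of the 3 groups, with Benjamini-Hochberg adjustment over all genes and a threshold of 0.05. This test was used as the main one for raw counts, while the study used DESeq2, which is an alternative here (1.42.0). The square root of the common dispersion was 0.109. Normalized counts are TMM-scaled counts at a library size of 40298595, and TPM used the exonic bases of GENCODE 29. Log2 CPM had a prior count of 2. Totals per library ranged from 30770448 to 58272772, and the 3 libraries per group limit the precision.

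The study describes its experiments as independent, but labels do not say which libraries came from separate cultures, so p-values measure only the spread between these libraries. Groups came from the treatment in the labels, and the doses and time from the methods. Text names all members, list genes past the test in any comparison with a few others of each list given as values chosen after they were seen, adjacent genes, the 3 genes most like each member that rose, and CCL20, CXCL8 and NFKBIA as a check of stimulation. The members and lists were chosen with earlier results of these data known. The scripts were tested on simulated data. Promoter windows came from RefSeq (GRCh38.p14), where 5 of the 6 genes had an entry. Drawing used Python 3.11.15 and matplotlib 3.10.9. Alternatives were other scalings, filters, the 6 libraries of a comparison alone, DESeq2, a 2-fold limit, a replicate block, leaving out each library, and, added after seeing the data, offsets for length and GC content.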

Additional observations from a re-analysis of the deposited data

How the results depend on the processing

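TIFA and RIPK2 passed the test against non-stimulated cells and against flagellin in all 17 other ways of processing, apart from the 2-fold limit, under which 1 gene, TIFA, was left in each comparison (2 without it). With flagellin no gene passed in the reported fit, but 1, TIFA, did with DESeq2, with no filter, with the 6 libraries of the comparison alone, with the length and GC offsets, and without non-stimulated replicate 2 or ADP-heptose replicate 3 (range 0 to 1 over single libraries left out). Of the partners and regulators, the 2-fold limit left 4 of 8 with ADP-heptose and 3 of 7 between the stimuli. With flagellin 4 passed instead of 2 when the 6 libraries were fitted alone, and 2 to 4 when single libraries were left out, 4 being without ADP-heptose replicate 3. Leaving out that replicate also gave 12 instead of 8 with ADP-heptose (range 6 to 12) and 11 instead of 7 between the stimuli (range 6 to 11). Library totals as the scale moved the median over all genes with ADP-heptose from 0.01 to -0.13 (log2), and the higher share of the calls from 62.8% to 32.7%; between the stimuli that share went from 66.2% to 40%.

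Signs reversed only for values near 0 that never passed the test. With flagellin, log2 fold changes were -0.16 to 0.11 for ALPK1, -0.0432 to 0.117 for NOD1 and -0.0439 to 0.0175 for RIPK2 when single libraries were left out, with -0.0208 for NOD1 under the offsets. ALPK1 between the stimuli was -0.179 to 0.0844, and 0.0211 under the offsets. The causes of these changes were not tested.

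Replicate numbers are shared by the groups, but the labels do not say what they mark, and same-numbered libraries did not deviate together (r from -0.38 to 0.22 over the 9 pairs). With the replicate block the counts of calls stayed at 2, 0 and 2 of the 6 genes and at 8, 2 and 7 of the partners, TIFA with flagellin had an adjusted p of 0.126, and EEF2K between the stimuli was at -0.36 (adjusted p = 0.0639), the only named call it changed. NOD2 had 9 counts and TIFAB had 0 over the 9 libraries, so no difference could be measured for either gene. The reason for these low counts was not tested.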
